A study of Mus musculus with 2 samples.

Results

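The sarcomere is bounded by Z-discs and held together at its centre by the M-band, and titin spans the distance between them. Levels of 10 genes of these structures were compared between csMed1-/- and Med1fl/fl mouse heart: Actn2, Ldb3, Csrp3, Tcap, Myoz1 and Myoz2 of the Z-disc, Myom1 and Myom2 of the M-band, Ttn (titin) and Ankrd1, a titin-binding stress gene. The 10 were taken by gene symbol from the 22882 symbols in the tables, and each had a single row in both tables. In the csMed1-/- heart the FPKM (a level in sequenced fragments, divided by transcript length and by the mapped reads of the library) of 5 of them was more than 2-fold lower, against 18.0% of all genes compared. That of Myoz1 was more than 2-fold higher from a very low level, against 13.6% of all genes, and the other 4 lay within 2-fold. Relative to the median cardiomyocyte marker, itself a sarcomere gene, the number more than 2-fold lower was 1 in place of 5. On that scale 5.01% of all genes were more than 2-fold lower. The lowest ratio was that of Myom2, at 0.0922, and the abundant Z-disc genes Myoz2, Tcap, Csrp3 and Ldb3 had ratios between 0.270 and 0.409, whereas the level of Actn2 was higher, at a ratio of 1.47.

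RNA was prepared from whole hearts of 23-day-old C57BL6/J mice of both sexes, pooled from 5 mice for each genotype and sequenced as 1 library for each pool. Med1 is a subunit of the Mediator complex, which links transcription factors to RNA polymerase II. Both genotypes carried loxP-flanked Med1 alleles. The csMed1-/- mice also carried Cre recombinase under the alpha-myosin heavy chain promoter, which is active in cardiomyocytes, so that other cell types of the heart kept Med1, and no group with Cre alone was analysed here. With 1 pooled library for each genotype there is no replicate error, and no difference below has a test: the values compare these libraries. In whole-heart RNA, fewer cardiomyocytes and less of an RNA in each cardiomyocyte cannot be told apart. Med1 itself stood at 3.38 FPKM in the Med1fl/fl heart and 0.412 FPKM in the csMed1-/- heart, a ratio of 0.122, the direction that the labels state.

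At the Z-disc, alpha-actinin crosslinks the barbed ends of actin filaments from neighbouring sarcomeres, and PDZ-LIM, LIM-only and calsarcin proteins bind to it. The N-terminus of titin is anchored there by telethonin, the product of Tcap, and its C-terminus lies in the M-band, where myomesins crosslink the thick filaments. Mutations in several of these genes, among them TTN, CSRP3, LDB3 and ACTN2 in humans, are known in inherited cardiomyopathy, and ANKRD1 is induced in stretched or overloaded myocardium.

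Promoter sequence was matched for 7 of the 10 genes (Actn2, Ldb3, Csrp3, Myoz2, Myom1, Ttn and Ankrd1) in RefSeq, build GRCm38.p6. Of the 9 start sites of these genes, 4 are shown as the 250 bases before the start site, to set a gene that was higher in the csMed1-/- heart (Actn2) beside 2 that were more than 2-fold lower (Ldb3 and Myoz2) and titin. All 4 genes lie on the minus strand, and each sequence is written 5′ to 3′ in the direction of the gene. Capitals mark the sites found of any of 5 motifs: the M-CAT core CATTCC, the GATA motif AGATAA, the nuclear receptor core AGGTCA, the MEF2 motif and the CArG box, each searched on both strands. The windows are chr13:12340733-12340982 for Actn2, chr14:34588682-34588931 for Ldb3, chr3:123034988-123035237 for Myoz2 and chr2:76982548-76982797 for Ttn.
Actn2: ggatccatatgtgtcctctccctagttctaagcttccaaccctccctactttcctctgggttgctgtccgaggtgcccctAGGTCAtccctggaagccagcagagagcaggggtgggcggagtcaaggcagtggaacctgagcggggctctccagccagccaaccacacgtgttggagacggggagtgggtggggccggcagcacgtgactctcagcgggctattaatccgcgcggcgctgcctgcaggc
Ldb3: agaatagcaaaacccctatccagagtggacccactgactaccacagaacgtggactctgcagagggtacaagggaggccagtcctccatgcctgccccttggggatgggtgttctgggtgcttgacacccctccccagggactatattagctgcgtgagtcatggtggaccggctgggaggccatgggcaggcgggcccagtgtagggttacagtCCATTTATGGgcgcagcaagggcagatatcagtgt
Myoz2: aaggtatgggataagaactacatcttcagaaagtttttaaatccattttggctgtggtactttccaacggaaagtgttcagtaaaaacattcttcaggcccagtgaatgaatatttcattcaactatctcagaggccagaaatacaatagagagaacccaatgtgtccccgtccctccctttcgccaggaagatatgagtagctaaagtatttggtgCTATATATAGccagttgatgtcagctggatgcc
Ttn: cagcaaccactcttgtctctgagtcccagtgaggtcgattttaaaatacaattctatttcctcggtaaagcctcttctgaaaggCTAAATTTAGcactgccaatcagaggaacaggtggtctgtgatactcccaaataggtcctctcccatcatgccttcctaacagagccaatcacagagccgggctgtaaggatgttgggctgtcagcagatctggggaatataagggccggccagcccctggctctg

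The capitals show no motif shared by Actn2 and the lower genes, and none that Ldb3 shares with Myoz2. The sequence AGGTCA, the core bound by many nuclear receptors, lay 170 bases before the start site of Actn2 and in no other of the 9 windows, and 14.0% of all 32851 RefSeq promoters of this length held it. A MEF2 motif, bound by the MEF2 factors of muscle, was found 33 bases before the start site of Myoz2 and 166 bases before that of Ttn, and 2.92% of all promoters held it. A CArG box, the site of serum response factor, was found before both start sites of Ldb3 (1 site, 35 or 109 bases upstream) and 99 bases before that of Myom1, against 1.47% of all promoters. In Ankrd1 the M-CAT core, the element of TEAD factors, was found 210 and 123 bases upstream on the other strand, and 12.6% of all promoters held it. The GATA motif lay 47 bases before the start site of Ankrd1 and 115 bases before that of Myom1, against 9.99% of all promoters. The E-box CANNTG, bound by basic helix-loop-helix factors, was found in 6 of the 7 genes and in 66.2% of all promoters, and it is not marked. None of the sites overlapped another. These matches describe the letters of the windows and say nothing of binding.

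The comparison took in the 10489 genes whose level was above 0 in each library and reached 1 FPKM in at least 1 of them. All 10 Z-disc, M-band and titin genes passed, Myoz1 only through its level in the csMed1-/- heart. Of the 10, Ldb3, Csrp3, Tcap, Myoz2 and Myom2 were past 2-fold lower. The 10 were chosen with earlier results of these data known, so the shares below are description. At a 1.5-fold threshold 6 of the 10 were lower, against 29.7% of all genes, and 1 was higher, against 23.7%. At a 4-fold threshold Myom2 was lower, against 5.14% of all genes, and Myoz1 higher, against 4.32%. Most of the 10 are abundant, and among the 1223 genes at 100 FPKM or more in either library 18.7% were past 2-fold lower and 19.3% higher. Counted without a threshold, 7 of the 10 were lower and 3 higher in the csMed1-/- heart. Of all 10489 genes compared, 5579 were lower and 4910 higher. The median log2 ratio of the 10 was -1.07, beside -0.07 for all genes compared and 0.14 for the abundant genes. Their summed level was 8395 FPKM in the Med1fl/fl heart and 4273 FPKM in the csMed1-/- heart, a ratio of 0.509.

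**Figure D1:**
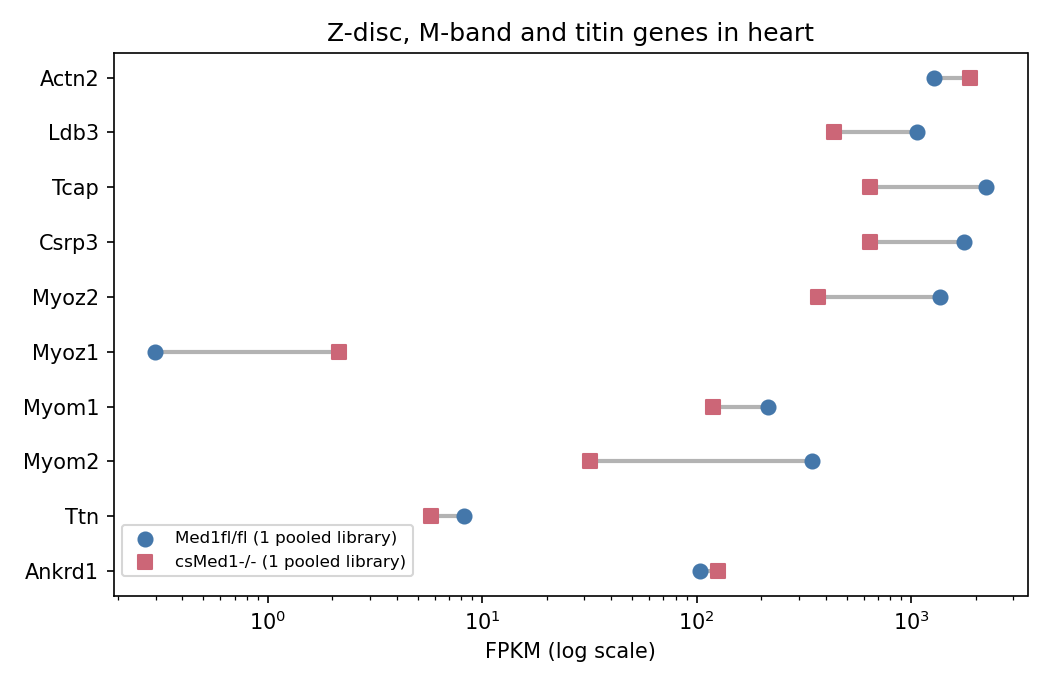
FPKM on a log axis of each of the 10 genes in the Med1fl/fl (circles) and csMed1-/- (squares) pooled heart library, with no error bars because each genotype has 1 library. Squares lie left of circles in 7 genes and right of them in Actn2, Myoz1 and Ankrd1, and the widest gaps are those of Myom2 (344 to 31.7 FPKM) and Myoz1 (0.299 to 2.15 FPKM).

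Among the Z-disc scaffold genes, Actn2 and Ldb3 went opposite ways. Actn2, which encodes the sarcomeric alpha-actinin of heart (chromosome 13, 12269426 to 12340760, minus strand, 21 exons in the longest coding model of GENCODE M21, build GRCm38), stood at 1286 FPKM in the Med1fl/fl heart and 1892 FPKM in the csMed1-/- heart. Its ratio was 1.47 (log2 0.56), within 2-fold, and it went from rank 111 to rank 58 of all genes by FPKM. Ldb3, which encodes cypher (ZASP), a PDZ-LIM protein that binds alpha-actinin (chromosome 14, 34526603 to 34588682, minus strand, 14 exons), stood at 1068 FPKM in the Med1fl/fl heart and 436 FPKM in the csMed1-/- heart. Its level was 2.45-fold lower (log2 -1.29). Among the 10 genes Actn2 stood behind Tcap, Csrp3 and Myoz2 in the Med1fl/fl heart and above all of them in the csMed1-/- heart.

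Tcap and Csrp3 were the most abundant of the 10 genes in the Med1fl/fl heart, and both were lower in the csMed1-/- heart. Tcap, the gene of the titin cap telethonin (chromosome 11, 98383811 to 98384953, plus strand, 2 exons), stood at 2235 FPKM in the Med1fl/fl heart and 646 FPKM in the csMed1-/- heart, 3.46-fold lower (log2 -1.79). It ranked 55th among all genes in the Med1fl/fl heart and 214th in the csMed1-/- heart. Csrp3, which encodes the muscle LIM protein, a partner of telethonin and alpha-actinin (chromosome 7, 48830398 to 48848033, minus strand, 6 exons), stood at 1773 FPKM in the Med1fl/fl heart and also 646 FPKM in the csMed1-/- heart, 2.74-fold lower (log2 -1.46). The levels of Tcap and Csrp3 differed in the Med1fl/fl heart and held ranks 214 and 215 in the csMed1-/- heart. Whether their changes are linked was not tested.

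The genes of the calsarcins, which tie calcineurin to the Z-disc through alpha-actinin, stood at very unlike levels. Myoz2 (calsarcin-1, the form of heart and slow muscle; chromosome 3, 123006206 to 123035015, minus strand, 6 exons) stood at 1362 FPKM in the Med1fl/fl heart and 368 FPKM in the csMed1-/- heart, 3.70-fold lower (log2 -1.89). Myoz1 (calsarcin-2, the form of fast skeletal muscle; chromosome 14, 20649107 to 20656540, minus strand, 6 exons) stood at 0.299 FPKM in the Med1fl/fl heart and 2.15 FPKM in the csMed1-/- heart, a ratio of 7.19 (log2 2.85). This was the 192nd largest increase of the genes compared, and with 1 FPKM added to each value the log2 ratio was 1.28. Myoz1 passed the minimum only through the csMed1-/- heart, so with its Med1fl/fl level it could be compared only as a higher gene. Even in the csMed1-/- heart the level of Myoz2 was 171 times that of Myoz1, beside 4555 times in the Med1fl/fl heart. With 1 FPKM added to each value these were 117 and 1049 times. Of 11 listed markers of fast or embryonic skeletal muscle, 9 were measured, and their summed level was 11.7 FPKM in the Med1fl/fl heart and 4.46 FPKM in the csMed1-/- heart. The 3 markers that passed the minimum were Tnni2 (5.38 and 0.276 FPKM), Myh1 (4.05 and 0.471 FPKM) and Mylpf (0.955 and 2.44 FPKM). Tnni2 and Myh1 made up most of the Med1fl/fl sum. Mylpf went the other way and passed only through its level in the csMed1-/- heart. The other markers measured were under 1 FPKM in both libraries and went both ways.

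In the M-band, Myom2 was lower by more than its paralog. Myom1, which encodes myomesin 1, found in the M-band of all striated muscle (chromosome 17, 71002633 to 71126856, plus strand, 38 exons), stood at 216 FPKM in the Med1fl/fl heart and 119 FPKM in the csMed1-/- heart, 1.81-fold lower (log2 -0.86) and within 2-fold. In the gene models 207 of its 7085 exon bases, or 2.92%, overlap Myl12a on the other strand. Myom2, which encodes the M-protein of adult heart and fast muscle (chromosome 8, 15057653 to 15133541, plus strand, 37 exons), stood at 344 FPKM in the Med1fl/fl heart and 31.7 FPKM in the csMed1-/- heart, 10.8-fold lower (log2 -3.44). It had the 131st largest decrease of the 10489 genes compared and went from rank 346 to rank 2478 by FPKM. The order of the pair turned over: the ratio of Myom1 to Myom2 was 0.628 in the Med1fl/fl heart and 3.76 in the csMed1-/- heart, a 5.99-fold change that does not depend on how the libraries were scaled.

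Ttn and Ankrd1 differed least. Ttn (chromosome 2, 76703980 to 76982547, minus strand, 347 exons and 106824 bases in the longest coding model) stood at 8.22 FPKM in the Med1fl/fl heart and 5.75 FPKM in the csMed1-/- heart, 1.43-fold lower (log2 -0.52). Titin is among the most abundant proteins of heart, whereas these levels are of RNA and rank 5358th and 5979th among all genes. Ranks of RNA and of protein are unlike measures. FPKM divides by transcript length, and what that does to the level of so long a transcript was not tested. The antisense gene Gm13938 overlaps 453 of 113589 exon bases of Ttn, or 0.399%. Ankrd1, which encodes the cardiac ankyrin repeat protein, a binder of the spring region of titin that is also found in the nucleus (chromosome 19, 36111961 to 36120099, minus strand, 9 exons), stood at 103 FPKM in the Med1fl/fl heart and 125 FPKM in the csMed1-/- heart, a ratio of 1.21 (log2 0.28). Nppa, the atrial natriuretic peptide gene and another gene of myocardial load, stood at 468 FPKM in the Med1fl/fl heart and 11114 FPKM in the csMed1-/- heart.

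Shares within paralog families were then compared, since a share within a library does not depend on its scaling. The families were grouped after the values had been seen. In the family of cysteine and glycine-rich LIM proteins, Csrp3 held 96.0% of the summed FPKM in the Med1fl/fl heart and 59.1% in the csMed1-/- heart, while the share of Csrp1, the form of smooth muscle and many other tissues, was 2.34% and 34.6%. In the PDZ-LIM family, taken as Ldb3, Pdlim1, Pdlim2, Pdlim3, Pdlim4, Pdlim5 and Pdlim7, Ldb3 held 76.3% in the Med1fl/fl heart and 22.2% in the csMed1-/- heart. The share of Pdlim7 (enigma), which like the Ldb3 product joins a PDZ domain to LIM domains, was 7.02% and 48.8%, and that of Pdlim1 was 6.44% and 17.7%. The summed level of these 7 genes was 1400 FPKM in the Med1fl/fl heart and 1966 FPKM in the csMed1-/- heart, higher while Ldb3 was lower.

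The alpha-actinins and myozenins kept their leading gene, and the myomesins and ankyrin repeat genes did not. Actn2 held 95.0% of alpha-actinin FPKM in the Med1fl/fl heart and 92.2% in the csMed1-/- heart. Of the non-muscle forms, Actn1 held 0.709% and 3.78%, and Actn4 held 4.30% and 4.01%. Myoz2 held over 99% of myozenin FPKM in both libraries, at 99.97% and 99.4%, and the share of Myoz1 was 0.0219% and 0.581%. Myom2 led the myomesins in the Med1fl/fl heart, at 61.4% against 38.6% for Myom1, and Myom1 led in the csMed1-/- heart, at 78.8% against 20.98%. Among the muscle ankyrin repeat genes, Ankrd23 held 57.6% in the Med1fl/fl heart and 45.5% in the csMed1-/- heart, and Ankrd1 held 42.3% and 54.3%. Summed levels of the myomesin and myozenin families were lower, at ratios of 0.270 and 0.272, that of the cysteine and glycine-rich family was lower at 0.592, that of the ankyrin repeat genes stood at 0.944, and that of the alpha-actinins was higher at 1.52.

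**Figure D2:**
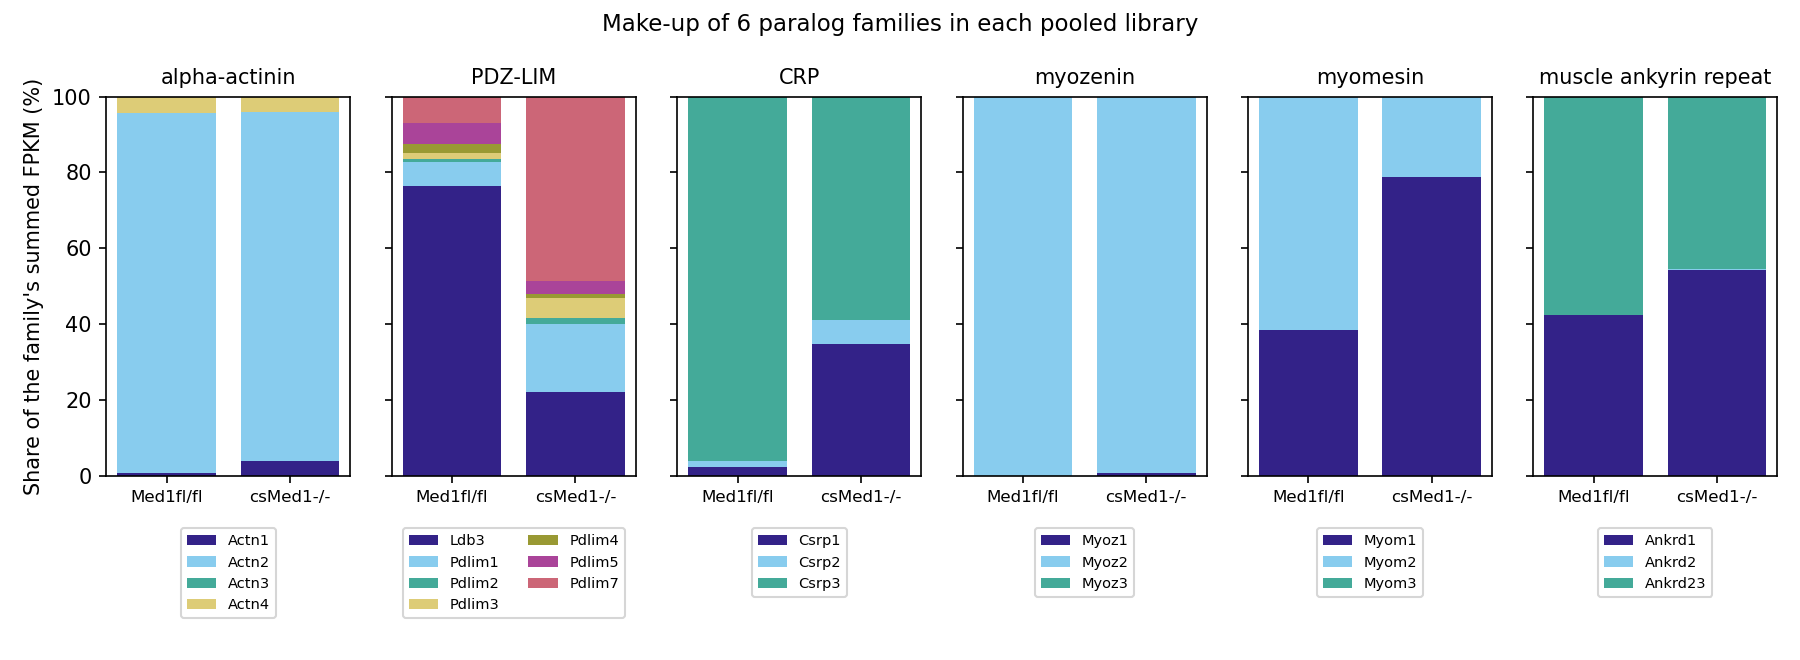
Stacked bars give each gene's share, in percent, of its paralog family's summed FPKM in the Med1fl/fl (left bar) and csMed1-/- (right bar) pooled heart library, for 6 families. The largest changes of make-up are in the PDZ-LIM family, where the share of Pdlim7 is 7.02% and 48.8%, in the cysteine and glycine-rich (CRP) family, where that of Csrp1 is 2.34% and 34.6%, and in the myomesins, where that of Myom1 is 38.6% and 78.8%.

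Of 25 other Z-disc genes listed, 22 could be compared, and more of them were higher than lower. In the csMed1-/- heart 9 of the 22 were past 2-fold higher and 4 past 2-fold lower, beside 13.6% and 18.0% of all genes. The median log2 ratio of the 22 was 0.65, beside -0.07 for all genes. This list was chosen with earlier results of these data known. The study itself gives Actn1, Pdlim3, Pdlim7 and Csrp1 among its up-regulated genes. The shares are therefore description, not a test of the list. The summed level of the 25 was 1358 FPKM in the Med1fl/fl heart and 3571 FPKM in the csMed1-/- heart. The higher genes that bind actin or alpha-actinin were Pdlim7 (98.3 and 959 FPKM in the Med1fl/fl and csMed1-/- heart), Pdlim3 (21.3 and 103 FPKM), Pdlim1 (90.1 and 348 FPKM), Actn1 (9.60 and 77.5 FPKM), the filamin gene Flnc (118 and 409 FPKM) and Xirp2 (2.56 and 9.91 FPKM). The higher LIM protein genes were Csrp1 (43.2 and 379 FPKM), Csrp2 (30.4 and 69.0 FPKM) and Lmcd1 (52.0 and 198 FPKM). The abundant co-chaperone gene Bag3 stood at 190 and 287 FPKM, within 2-fold. The 4 lower genes were Myot (myotilin, 3.19 and 0.519 FPKM), Synpo2 (37.2 and 9.51 FPKM), the formin gene Fhod3 (81.4 and 21.5 FPKM) and Nexn (nexilin, 4.37 and 1.43 FPKM). Several of the higher genes, among them Actn1, Csrp1 and Pdlim7, are known from non-muscle or smooth muscle cells as well as from cardiomyocytes.

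The other M-band and titin-linked genes were, like Myom1, Myom2 and Ttn, mostly lower. Of 15 listed, 12 could be compared, and 5 were past 2-fold lower and none past 2-fold higher in the csMed1-/- heart, beside 18.0% and 13.6% of all genes. Their median log2 ratio was -0.80. This list too was chosen with earlier results of these data known. Fhl2, the gene of a LIM protein that binds titin, stood at 1748 FPKM in the Med1fl/fl heart and 175 FPKM in the csMed1-/- heart. Ckm, the gene of the creatine kinase that docks at the M-band, stood at 5262 and 1837 FPKM. The muscle ring-finger genes Trim63 (85.4 and 30.3 FPKM) and Trim55 (61.4 and 28.6 FPKM), whose proteins bind titin near the M-band, were both past 2-fold lower. Fhl1 was the one gene of the 12 with a higher level, at a log2 ratio of 0.44. The summed level of the 12 and the 3 below the minimum was 8507 FPKM in the Med1fl/fl heart and 2743 FPKM in the csMed1-/- heart, a ratio of 0.322. Ckm and Fhl2 made up most of this sum in both libraries, so the ratio mainly reflects these genes.

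**Figure D3:**
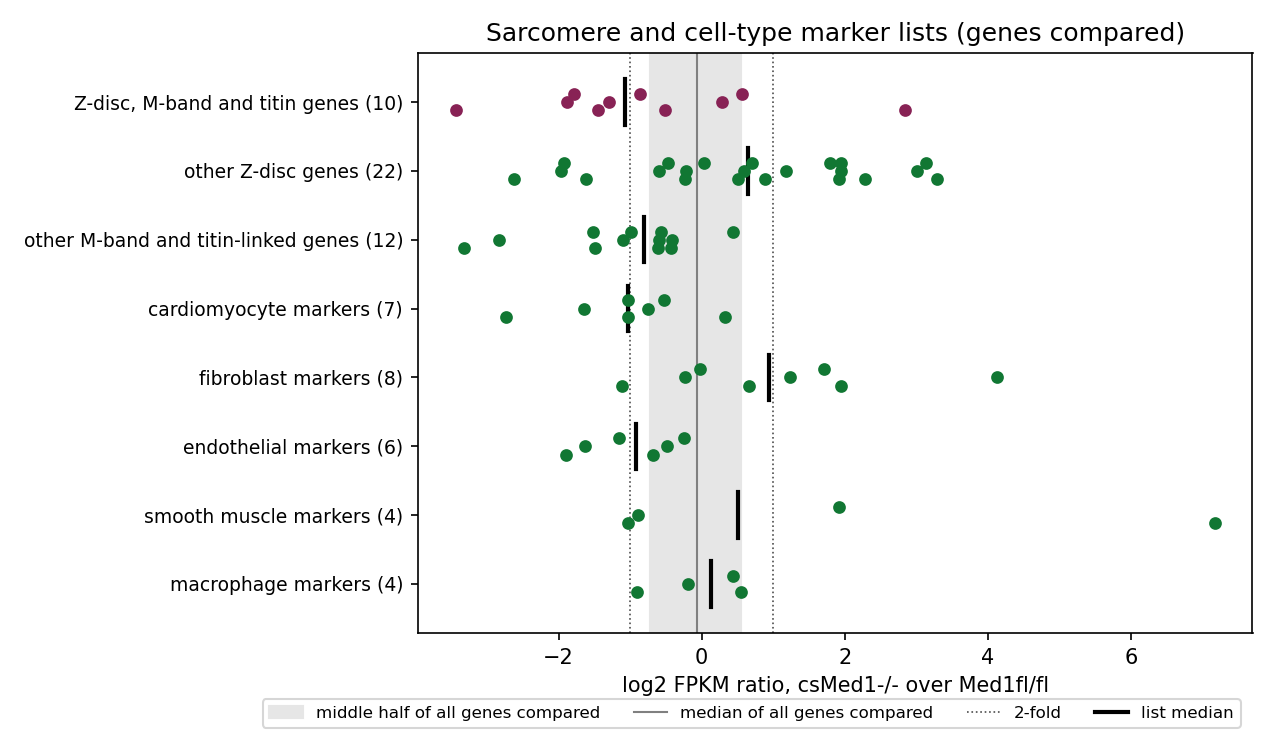
log2 FPKM ratio of csMed1-/- over Med1fl/fl heart for each gene compared (points), in the 10 Z-disc, M-band and titin genes, in lists of other Z-disc and M-band genes and in cell type markers, with the number of genes in brackets. Black bars are list medians (-1.07, 0.65 and -0.80 for the first 3 lists), the grey band spans the quartiles of all 10489 genes (-0.72 to 0.55), the grey line is their median and dotted lines mark 2-fold.

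Cardiomyocyte markers were mostly lower too. Of 10 listed markers 9 were measured, and Actc1 and Mb were listed at 0 in the Med1fl/fl heart, beside 9189 and 1040 FPKM in the csMed1-/- heart, so that no ratio is given for them. A 0 in a table of FPKM can be a failed estimate, and since both genes are used by every cardiomyocyte these entries are not read as absence from the Med1fl/fl heart. Of the other 7, 4 were past 2-fold lower and none past 2-fold higher, beside 18.0% and 13.6% of all genes. The median log2 ratio of the 7 was -1.03. They ranged from Tnni3, at 10283 and 1537 FPKM (log2 -2.74), to Tnnc1, at 4647 and 5823 FPKM (log2 0.33), and Myl2, the most abundant, stood at 20467 and 6571 FPKM. Their summed level was 66835 FPKM in the Med1fl/fl heart and 31387 FPKM in the csMed1-/- heart, a ratio of 0.470, beside 0.509 for the 10 genes.

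Markers of other cell types were compared in the same way, beside 18.0% of all genes past 2-fold lower and 13.6% higher. Of 8 fibroblast markers 4 were past 2-fold higher and 1 lower, with a median log2 ratio of 0.94. They ranged from Lum (log2 -1.11) to Postn (log2 4.13), Col1a1 was the most abundant at 129 and 502 FPKM, and their summed level was 503 and 1193 FPKM. Among 4 smooth muscle markers, Cnn1 stood at 4.32 FPKM in the Med1fl/fl heart and 622 FPKM in the csMed1-/- heart, Tagln was also past 2-fold higher (log2 1.91), Myh11 was past 2-fold lower (log2 -1.04), and Acta2 stood at 573 and 310 FPKM. The summed level of the 4 was 604 FPKM in the Med1fl/fl heart and 1024 FPKM in the csMed1-/- heart, and without Cnn1 it was 600.1 and 402 FPKM, in the opposite direction. Of 6 endothelial markers 3 were past 2-fold lower and none higher, with a median of -0.91, summed levels of 404 and 263 FPKM, and a range from Tek (log2 -1.90) to Pecam1 (log2 -0.25). The most abundant of them, Cdh5, stood at 129 and 92.2 FPKM. None of the 4 macrophage markers compared, of 5 listed, was past 2-fold in either direction, and their median was 0.12, with C1qa the most abundant at 91.1 and 123 FPKM. Of 6 atrial markers, Nppa and Myl4 (7.44 and 55.2 FPKM) were past 2-fold higher. Myl7 stood at 1.42 and 1.10 FPKM, Sln at 0.356 and 0.174 FPKM and Mybphl at 0.239 and 0 FPKM, and Bmp10 was listed at 0 in both libraries. Apart from Nppa and Myl4 this list was thus near the floor in both libraries. The part of these cell types in the levels of the 10 genes and of the other Z-disc genes was not tested.

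Taken relative to the median cardiomyocyte marker, 4 of the 5 lower genes came within 2-fold. The 7 markers used are themselves sarcomere genes, with log2 ratios from -2.74 to 0.33, and their median is the value of Tnnt2. The scaling thus sets the 10 genes beside other sarcomere genes and does not correct for the number of cardiomyocytes. This scaling adds 1.03 to each log2 ratio, which also moves the median of all genes by that amount, so that 5.01% of all genes were past 2-fold lower and 48.1% higher. Myom2 was then the one gene of the 10 past 2-fold lower (log2 -2.41). Ldb3 (-0.26), Csrp3 (-0.43), Tcap (-0.76) and Myoz2 (-0.86) stayed below 0 and within 2-fold, Myom1 (0.17) and Ttn (0.51) went above 0, and Actn2 (1.59), Ankrd1 (1.30) and Myoz1 (3.87) were past 2-fold higher. The median of the 10 was then -0.05.

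**Figure D4:**
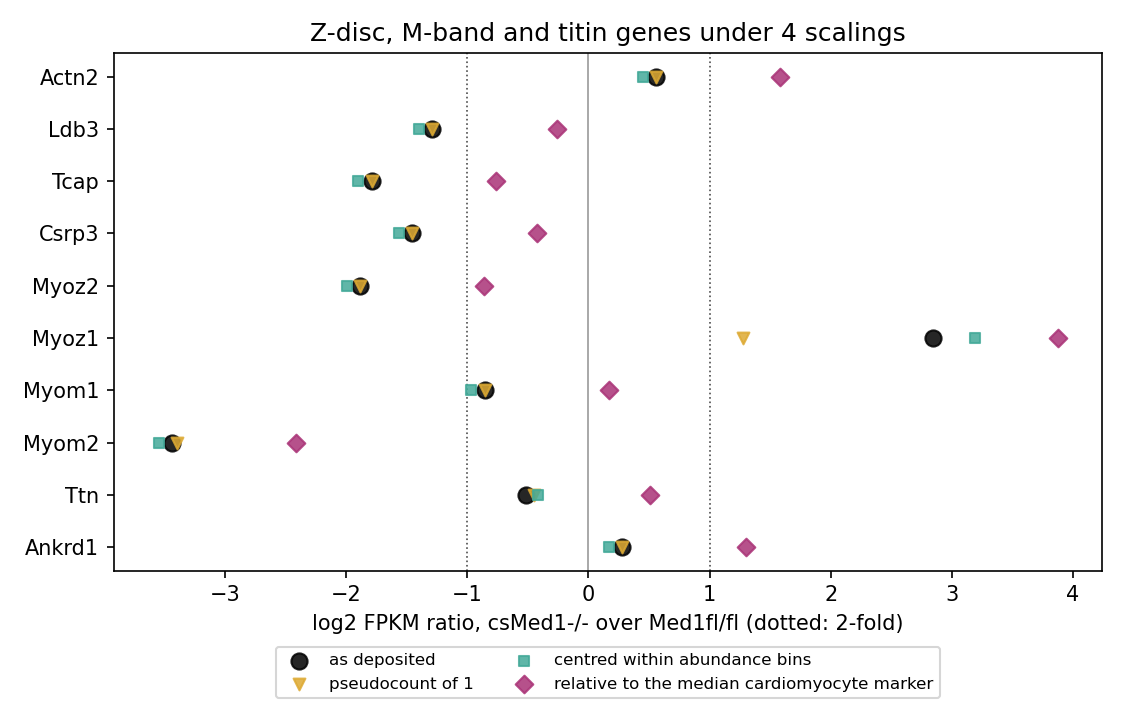
log2 FPKM ratio of csMed1-/- over Med1fl/fl heart of each of the 10 genes, as the FPKM were deposited, with a pseudocount of 1, centred within 10 abundance bins, and relative to the median cardiomyocyte marker, with dotted lines at 2-fold. Diamonds, the values relative to the cardiomyocyte marker, lie 1.03 to the right of the circles, and Myom2 is the one gene left of the lower dotted line on every scale shown.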

How the data were processed

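Heart RNA of 23-day-old mice was pooled from 5 animals for each genotype, enriched for poly(A) RNA and sequenced as 1 directional library for each pool. Per the study's methods, the authors aligned reads with TopHat 2.0.8b to mm10 and computed FPKM with Cufflinks 2.1.1 on UCSC gene models. The submitters' processing notes also name STAR 2.4.0h and DESeq2 with no role, and the deposited tables of FPKM, which do not state their source, were taken to come from Cufflinks. They hold no counts, so that depth is unknown and no interval can be given. The scaling between libraries and the strand setting are not given in the sources used here. The tables have 23424 rows, and rows that share a symbol (412 symbols) were summed. FPKM summed to 780366 in the Med1fl/fl and 716365 in the csMed1-/- library, with 9965 and 9742 genes at 1 FPKM or more.

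Ratios are plain FPKM ratios without a pseudocount, and 2-fold marks a call with no test. Text names all 10 genes, and of the other Z-disc and M-band lists the genes past 2-fold and the 3 most abundant, except 1 gene that is not reported here, and of the marker lists the extremes and the most abundant. The paralog families were grouped after values were seen. The members and lists were chosen with earlier results of these data known. Alternatives were pseudocounts of 0.1 and 1, other minimum levels and thresholds, centring on the median of all genes or within 10 abundance bins, scaling to the 75th percentile or to the sum without the 100 highest genes, and scaling to the median cardiomyocyte marker. Gene models came from GENCODE M21 and promoters from RefSeq GRCm38.p6, the same genome build as mm10. Computation used Python 3.11.15, numpy 2.4.6, pandas 2.3.3 and matplotlib 3.10.9.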

Additional observations from a re-analysis of the deposited data

How the results depend on the processing

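Of 70 values of the 10 genes under 7 alternatives, 62 kept their direction and their side of 2-fold. This count does not measure robustness, since most alternatives could hardly move a value. Centring on the median, scaling to the 75th percentile and scaling without the 100 highest genes subtract -0.0709, 0.0066 and 0.0140 from every log2 ratio. Centring within abundance bins subtracts 0.110 in the highest bin. The gene nearest a 2-fold line, Myom1, stood at -0.858. Taking the highest row alone changes nothing by construction, since each gene has 1 row, and is not counted. The 8 exceptions all arose under the scaling to the median cardiomyocyte marker, where 1 gene was past 2-fold lower and 3 higher with a median log2 ratio of -0.0473. At a 4-fold threshold 1 of the 10 was lower (Myom2), beside 5.14% of all genes. Over these alternatives the log2 ratio of Myom2 ranged from -3.55 to -2.41 and that of Myoz1 from 1.28 to 3.87. With a pseudocount of 1 the ratio of Myoz1 to Myoz2 in the Med1fl/fl heart was 0.000953 in place of 0.00022, and Myoz1 then held 0.0951% of the myozenin FPKM. The number of all genes past 2-fold lower was 3182 without a minimum level, 885 with a minimum of 10 FPKM and 539 at a 4-fold threshold, and past 2-fold higher 2504, 821 and 453. No paired analysis was possible because each genotype has 1 pooled library, and for the same reason no library could be left out. Depth is unknown, which limits low values such as those of Myoz1 most, and the spread between mice was lost in the pools.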
